A study of Mus musculus with 42 samples.

Results

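Zic1, Zic2, Zic4 and Zic5, 4 zinc finger transcription factor genes, were followed through 8 probe sets in Purkinje and Stellate/Basket cells of the mouse cerebellum. All probe sets that the array annotation assigns to these symbols were taken, 2 for Zic1, 1 for Zic2, 2 for Zic4 and 3 for Zic5, of 45101 probe sets and 18194 named genes on the array. The 4 genes were chosen by their measured difference between the cell types and their early difference within Purkinje cells in earlier results of these arrays, so both are given as a description, without a test. The cells came from cerebellar slices of mice of the strain CB6-Tg(Gad1-EGFP)G42Zjh/J, which carry a Gad67-GFP bac transgene, were all labelled male, and were collected by hand from dissociated tissue by green fluorescence and soma size. Both cell types carry the fluorescent transgene, so soma size separates them, and the number of cells behind an array is not given in the sources used here. Slices of all groups were treated alike with the receptor and channel blockers AP5, CNQX and TTX and with a bacterial protease, and the RNA of each sample went through 2 rounds of amplification. Stellate/Basket cells, the inhibitory interneurons of the molecular layer, were profiled at postnatal day 14 (P14) with 4 arrays, at P21 with 3, at P28 with 4, at P35 with 2 and at P56 with 2. Purkinje cells, the large neurons that carry the output of that cortex, had 3 arrays at each of P3, P7 and P14 and 4 at each age from P21 to P56. A further column at Stellate/Basket P35 and another at P56 equal the mean of the other columns of their age and were left out. The labels call the samples of a group biological replicates, and the 12 groups differ in cell type and age alone by the labels.

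Zic proteins bind DNA through a cluster of C2H2 zinc fingers related to those of the Gli factors, and they act both as transcriptional activators and as partners of other regulators. In the cerebellum, Zic genes are known for their expression in granule cell precursors and granule cells, and loss of Zic1 in mice reduces cerebellar size and folding. Human deletions that take ZIC1 and ZIC4 together have been linked to Dandy-Walker malformation, and mutations of ZIC2 to holoprosencephaly. Zic2 is also known for its role in retinal axon guidance, and Zic5 for its role in neural crest development.

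The 4 genes lie as 2 close pairs in the mouse genome, by the RefSeq annotation of GRCm38.p6. Zic1 (chr9:91358058-91365768, minus strand) and Zic4 (chr9:91365631-91389351, plus strand) are arranged head to head, and their gene bodies share 138 bases. Zic5 (chr14:122459160-122465658, minus strand) and Zic2 (chr14:122475384-122480328) are separated by 9725 bases, a stretch that 1 other gene, 2610035F20Rik, overlaps. The RefSeq promoter table held 3 of the 4 genes, and the 250 bases before the start that the table uses are shown because the members followed similar courses. For Zic4 that start lies inside the gene body given above, so its stretch is within the gene and is not the region shared with Zic1. Capitals mark exact matches, on either strand, to the letters searched: in Zic1 (chr9:91365769-91366018) 2 GC boxes GGGCGG, 2 CCAAT boxes and 1 E-box CACGTG, in Zic4 (chr9:91368722-91368971) 1 Zic-type core GGGTGG, and in Zic5 (chr14:122465659-122465908) the same core read from the opposite strand.
Zic1: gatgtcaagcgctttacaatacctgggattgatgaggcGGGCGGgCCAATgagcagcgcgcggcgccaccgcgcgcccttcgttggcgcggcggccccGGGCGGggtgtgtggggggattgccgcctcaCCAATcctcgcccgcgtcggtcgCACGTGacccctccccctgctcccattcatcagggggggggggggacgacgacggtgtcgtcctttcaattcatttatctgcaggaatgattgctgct
Zic4: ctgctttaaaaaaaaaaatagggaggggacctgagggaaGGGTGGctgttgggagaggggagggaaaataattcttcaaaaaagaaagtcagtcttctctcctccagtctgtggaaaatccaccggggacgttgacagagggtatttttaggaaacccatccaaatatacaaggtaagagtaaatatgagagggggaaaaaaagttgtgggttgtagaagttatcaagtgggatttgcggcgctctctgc
Zic5: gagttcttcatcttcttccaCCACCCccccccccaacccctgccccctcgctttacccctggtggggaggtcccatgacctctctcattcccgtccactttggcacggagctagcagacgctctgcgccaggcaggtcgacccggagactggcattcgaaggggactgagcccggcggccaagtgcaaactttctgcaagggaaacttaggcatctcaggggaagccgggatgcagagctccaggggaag
The Zic1 stretch held 27 CpG dinucleotides, a count that 92.4% of 32851 promoters did not exceed, whereas the Zic4 stretch held 4 and the Zic5 stretch 11. Their GC content was 66%, 44.4% and 62.4%. Over all 32851 stretches of this length, 32.7% held GGGCGG, 33.8% CCAAT, 6.02% CACGTG and 28.1% GGGTGG. The longer Gli-type core GGGTGGTC, which contains the Zic-type core and was found in 0.703% of promoters, and the TATA box TATAAA, found in 12.4%, had no match in the 3 stretches.

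The deposited values are log2 intensities that the authors normalized, between 3.94 and 14.6 over all probe sets, with array medians between 5.91 and 6.16. They come without detection calls, so a value near 5 is called low here and folds against such values are uncertain. All 8 Zic probe sets passed the filter, which asked for values above 5 on 3 arrays or more, but Zic4 1421539_at did so in only 3 of 40 arrays and Zic5 1425666_at in 12. Several groups stood apart from their labels on cell type markers. The mean of 7 interneuron markers (among them the receptor Kit and the transcription factor Tfap2b) was 10.35, 9.83, 9.74 and 9.27 at Stellate/Basket P14 to P35 but 5.97 at P56, against 5.67 to 5.79 in Purkinje arrays from P14 and 9.57 and 9.54 at Purkinje P3 and P7. The mean of 14 Purkinje markers was 11.56 at Stellate/Basket P56 and 9.07 to 10.50 at earlier ages, against 8.13 and 9.58 at Purkinje P3 and P7 and 12.42 to 12.68 later. The mean of 12 astrocyte and Bergmann glia markers lay between 9.74 and 10.95 in Stellate/Basket groups from P21 and at 7.46 at P14, against 6.62 to 7.60 in Purkinje groups. Markers of Golgi and unipolar brush cells averaged 6.26 to 6.57 in Stellate/Basket groups, against 8.40 and 8.37 at Purkinje P3 and P7 and 6.10 to 6.37 later. Markers of dividing cells averaged 6.08 to 6.46 in Stellate/Basket groups, against 7.84 and 7.41 at Purkinje P3 and P7 and 5.99 to 6.28 later. Xist, which is transcribed from the inactive X chromosome of females, was above 9 in 14 of 15 Stellate/Basket and 13 of 25 Purkinje arrays, although every sample is labelled male.

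Zic1, the family member best known from the cerebellum, separated the Stellate/Basket arrays from every Purkinje array of the same ages. Its probe set 1423477_at read 12.54, 12.03, 11.92 and 12.10 at Stellate/Basket P14, 12.24, 12.35 and 12.11 at P21, 12.28, 12.34, 12.39 and 12.32 at P28, 12.16 and 12.02 at P35, and 10.61 and 11.56 at P56. In Purkinje cells it read 12.49, 11.96 and 12.48 at P3, 11.90, 11.9975 and 11.83 at P7, and 4.75, 4.64 and 4.77 at P14. The early Purkinje arrays thus lay in the range of the Stellate/Basket arrays, and the P14 Purkinje arrays lay among the low values. Later Purkinje arrays spread between 4.73 and 8.69: 6.71, 8.69, 5.73 and 6.42 at P21, 7.09, 5.56, 5.88 and 4.93 at P28, 6.68, 5.10, 6.46 and 6.78 at P35, and 5.08, 4.73, 5.70 and 5.37 at P56. Averaged over the 5 shared ages with equal weight, Zic1 was at 11.98 in Stellate/Basket and 5.79 in Purkinje arrays, a log2 difference of 6.19 ± 0.21 (SE) or 72.9-fold. The second probe set, 1439627_at, gave 12.49 and 5.32, a difference of 7.18 ± 0.28. In pools of hand-collected cells, fewer cells of a type and less RNA per cell cannot be told apart.

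**Figure D1:**
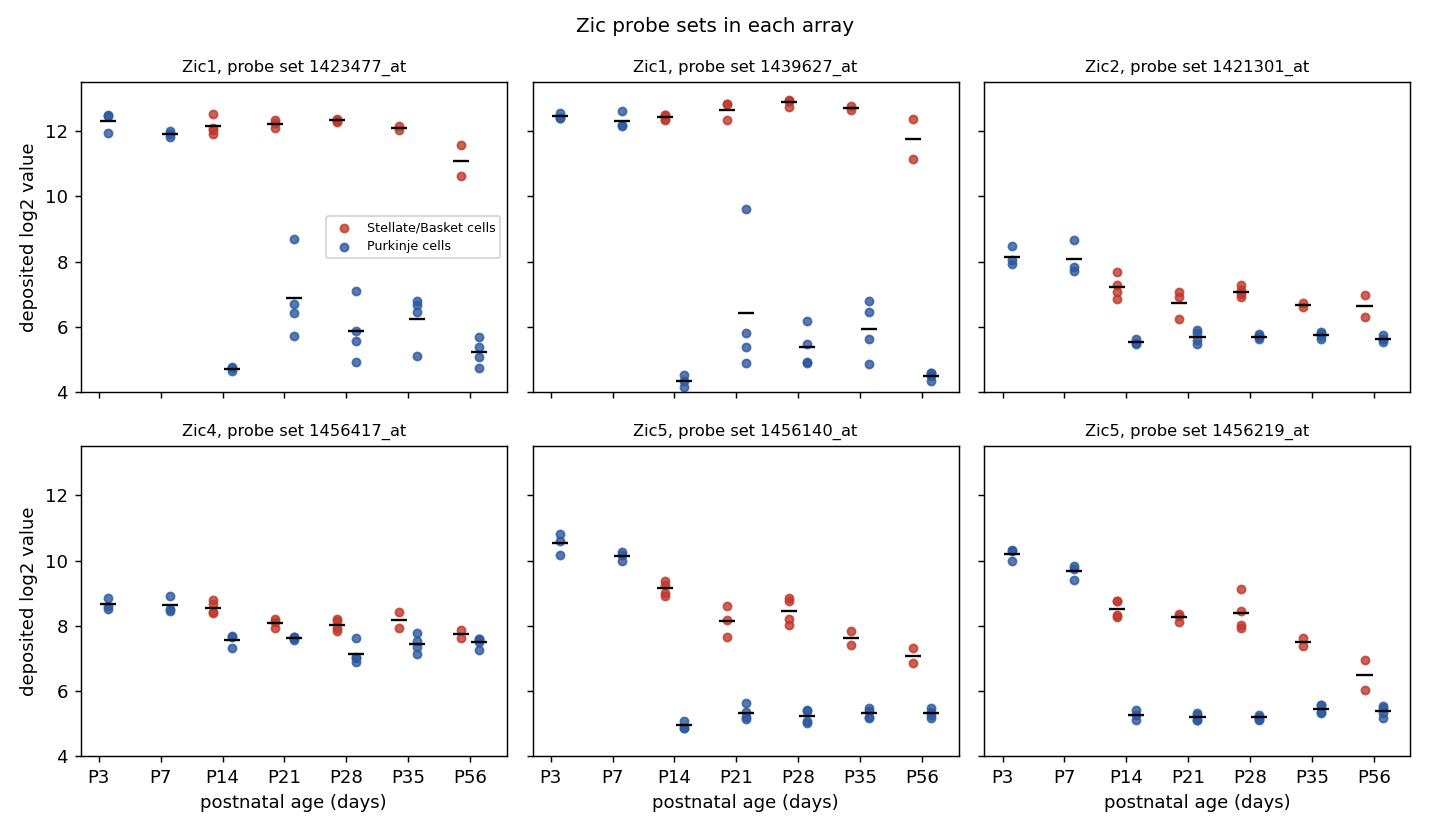
Deposited log2 value of the 6 Zic probe sets that were not low in most arrays, in each of the 40 arrays, by age. Ages are evenly spaced on the axis and not to scale in days. Each point is 1 array, Stellate/Basket (red) to the left of Purkinje (blue), and bars are group means. Zic1 stays above 10.6 in all Stellate/Basket arrays, and both Zic5 probe sets have lower values at Stellate/Basket P56 than at P14.

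The order of Zic1 group means by 1423477_at ran from Stellate/Basket P28 (12.33 ± 0.05, SD, n = 4) and Purkinje P3 (12.31 ± 0.30, n = 3) through Stellate/Basket P21, P14 and P35 (12.23, 12.15 and 12.09) to Purkinje P7 (11.91 ± 0.09, n = 3) and Stellate/Basket P56 (11.09 ± 0.67, n = 2). Down to Stellate/Basket P35 neighbouring means differed by less than the larger of their SDs, while the next steps, to Purkinje P7 and to Stellate/Basket P56, were larger than that. A gap of over 4 log2 units followed, down to Purkinje P21 (6.88 ± 1.27, n = 4), P35 (6.26 ± 0.78), P28 (5.87 ± 0.90), P56 (5.22 ± 0.41) and P14 (4.72 ± 0.07, n = 3). Within this lower block each neighbouring pair of means differed by less than the larger of its SDs except P14 against P56.

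A single Purkinje array, P21 replicate 2, had the highest Zic1 values after P7. It read 8.69 by 1423477_at and 9.61 by 1439627_at, where the other 15 Purkinje arrays from P21 on read 4.73 to 7.09 and 4.35 to 6.78. In that array the interneuron markers averaged 6.34, against 5.53 to 5.65 in the other P21 Purkinje arrays, the astrocyte and Bergmann glia markers averaged 8.24, against 6.64 to 7.66, and the Purkinje markers averaged 12.60, within the others' range. Over the 19 Purkinje arrays from P14 on, Zic1 by 1423477_at correlated with the astrocyte and Bergmann glia mean (Pearson r = 0.664, permutation p = 0.00242, adjusted 0.01428 over 8 relations; Spearman rho = 0.565, permutation p = 0.0132, adjusted 0.0555). Without the 2 arrays farthest from the median of the markers r was 0.460, and with each array taken relative to its age mean it was 0.454. By 1439627_at the values were r = 0.669 (permutation p = 0.00357, adjusted 0.01428), rho = 0.535 (permutation p = 0.0195, adjusted 0.0555), 0.281 without the 2 farthest arrays and 0.486 within ages. With the interneuron markers r was 0.422 and 0.606 (permutation p = 0.0713 and 0.0355, adjusted 0.109 and 0.0947; rho -0.03 and -0.02, permutation p = 0.915 and 0.923) and turned to -0.23 and -0.17 without the 2 farthest arrays, so that relation rested on them; with all arrays taken relative to their age means r was 0.614 and 0.792. The 4 relations with granule cell and Purkinje markers had adjusted permutation p-values of r between 0.109 and 0.431. By 1439627_at rho was 0.519 with the granule cell markers and -0.507 with the Purkinje markers (permutation p = 0.0251 and 0.0277, adjusted 0.0555 each), and the granule cell r was 0.394 without the 2 farthest arrays. The permutations exchanged arrays across ages, so their p-values do not separate differences between ages from those within an age. No p-value was computed for the values relative to age means. These relations were also chosen after the values had been seen, so all their p-values are a description. Whether other cells in the pools contributed Zic1 RNA was not tested.

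Zic5, the neighbour of Zic2, had high values in the youngest cells of either label and graded values in Stellate/Basket cells. Its probe set 1456140_at read 9.01, 8.92, 9.38 and 9.27 at Stellate/Basket P14, 7.66, 8.19 and 8.61 at P21, 8.85, 8.21, 8.03 and 8.75 at P28, 7.83 and 7.40 at P35, and 6.85 and 7.31 at P56. Purkinje arrays read 10.18, 10.82 and 10.61 at P3 and 9.99, 10.18 and 10.26 at P7, and between 4.87 and 5.64 in all 19 later arrays. The early Purkinje arrays were above every Stellate/Basket array, and the later ones below every one. The probe set 1456219_at read 8.75, 8.26, 8.32 and 8.76 at Stellate/Basket P14, 8.13, 8.36 and 8.29 at P21, 8.01, 8.46, 7.94 and 9.12 at P28, 7.38 and 7.64 at P35 and 6.96 and 6.02 at P56, against 9.99, 10.30 and 10.33 at Purkinje P3, 9.75, 9.85 and 9.41 at P7 and 5.10 to 5.58 from P14. Over the shared ages the difference was 2.86 ± 0.09 (8.09 in Stellate/Basket, 5.23 in Purkinje arrays) and 2.53 ± 0.09 (7.83 and 5.30). The third Zic5 probe set, 1425666_at, stayed between 4.6 and 5.22 in all 40 arrays and gave 0.07 ± 0.04, a difference whose sign changed under quantile normalization (-0.01).

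Zic2 gave the same order at smaller differences. It read 7.67, 6.85, 7.06 and 7.30 at Stellate/Basket P14, 6.24, 7.06 and 6.91 at P21, 6.90, 7.01, 7.29 and 7.13 at P28, 6.60 and 6.72 at P35 and 6.97 and 6.29 at P56. In Purkinje cells it read 8.48, 8.06 and 7.94 at P3, 7.70, 8.68 and 7.84 at P7, 5.50, 5.49 and 5.63 at P14 and 5.48 to 5.92 later. No Stellate/Basket array overlapped the Purkinje arrays from P14 on, and the gap between the nearest arrays was 6.24 against 5.92. The mean difference was 1.2 ± 0.09, from 6.87 in Stellate/Basket and 5.66 in Purkinje arrays.

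Zic4, which lies head to head with Zic1, differed least between the cell types. By 1456417_at it read 8.67, 8.41, 8.78 and 8.38 at Stellate/Basket P14, 7.94, 8.20 and 8.10 at P21, 8.22, 7.84, 7.92 and 8.16 at P28, 7.94 and 8.42 at P35 and 7.89 and 7.61 at P56. Purkinje arrays read 8.51, 8.60 and 8.86 at P3, 8.92, 8.53 and 8.46 at P7, and 6.89 to 7.77 from P14. The cell types overlapped in this probe set, with means of 8.12 in Stellate/Basket and 7.45 in Purkinje arrays, 0.67 ± 0.08 apart. The probe set 1421539_at was low in every group but Stellate/Basket P56. Its mean there was 5.93 ± 1.15 (SD, n = 2, arrays at 5.11 and 6.74), against 4.54 to 4.84 elsewhere.

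Every Stellate/Basket array exceeded every Purkinje array from P14 on in 5 of the 8 Zic probe sets, both of Zic1, that of Zic2 and 2 of Zic5. Such separation held for 0.738% of the 41895 probe sets tested, and 9.19% were called for the cell type difference in either direction, 4.54% as higher in Stellate/Basket cells. Because the members were chosen with this contrast known, the share is a description. As a further description, the difference of each of the 6 brighter Zic probe sets stayed above 0 under every alternative that was run. These covered normalization, filter, array set and the leaving out of each array. In the 5 separated probe sets, leaving out an array could not have changed the sign. Restricted to P21 to P56 and to arrays with Xist above 9, the difference was 6.08 and 7.04 for Zic1 and 2.51 and 2.33 for Zic5. With the ages P14 to P35 alone, it was 6.27 and 7.16 for Zic1 and 3.14 and 2.89 for Zic5.

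By age, the difference was largest at P14 for both Zic1 and both brighter Zic5 probe sets, and for Zic5 it was smallest at P56. For Zic1 1423477_at it was 7.43, 5.35, 6.46, 5.83 and 5.87 at P14, P21, P28, P35 and P56, and for 1439627_at 8.09, 6.24, 7.52, 6.79 and 7.26. For Zic5 it was 4.20, 2.81, 3.23, 2.30 and 1.77 by 1456140_at, which is 18.4-fold at P14 and 3.40-fold at P56, and 3.25, 3.06, 3.19, 2.05 and 1.11 by 1456219_at. Zic2 differed by 1.68, 1.03, 1.38, 0.91 and 1.0 and Zic4 1456417_at by 1.0, 0.46, 0.90, 0.73 and 0.26. For Zic4 the 95% interval at P56 ran from -0.12 to 0.63. At P14 Xist read 12.77 to 12.88 in the Stellate/Basket arrays and 6.47 to 6.59 in the Purkinje arrays. Cell type and Xist level cannot be told apart at that age, which the restriction to Xist-high arrays left out. Over all probe sets, 11.3%, 11.2%, 14.0%, 8.86% and 16.0% were called at the 5 ages, and the median difference of all probe sets at P56 was 0.11, while at the other ages it was within 0.05 of 0.

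**Figure D2:**
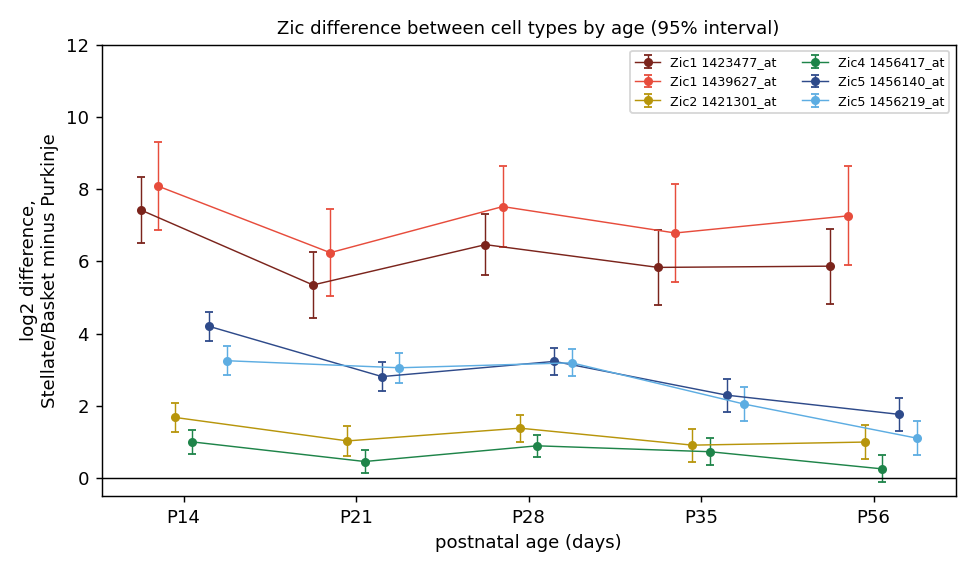
Log2 difference, Stellate/Basket minus Purkinje, of 6 Zic probe sets at the 5 shared ages (evenly spaced on the axis); points are differences of group means and bars are 95% intervals from the limma fit. Both Zic1 probe sets stay above 5 at each age, while Zic5 has its largest difference at P14 and its smallest at P56.

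In Purkinje cells, the Zic values at P3 and P7 belonged to the high range and those at P14 to the low range. The mean of Zic1 1423477_at was 4.72 at P14 against 11.91 at P7, a log2 difference of -7.19 ± 0.48, and that of 1439627_at -7.97 ± 0.63. Zic5 differed by -5.20 ± 0.21 and -4.40 ± 0.21, Zic2 by -2.53 ± 0.21 and Zic4 1456417_at by -1.08 ± 0.17. Between P56 and P3 the differences were -7.09 and -7.96 for Zic1, -5.22 and -4.82 for Zic5, -2.53 for Zic2 and -1.16 for Zic4. Over all probe sets 9.94% were called between P14 and P7 and 13.6% between P56 and P3; since these contrasts were known when the genes were chosen, nothing is read from the members' share. Over the same interval, when 6.83% of 17478 genes were called as lower and 5.70% as higher, all 7 interneuron markers fell (median -3.79). So did 4 of the 6 markers of Golgi and unipolar brush cells and 3 of 5 markers of dividing cells, while 12 of 14 Purkinje markers rose. Of the granule cell markers 5 of 12 fell and none rose (median -0.87), and 4 of the 12 glial markers (astrocytes and Bergmann glia) were called as lower and 1 as higher (median -1.05). The part of such cells in the Zic values of the early Purkinje arrays was not tested.

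The early Purkinje arrays were also set against the youngest Stellate/Basket arrays. Zic1 was within 0.24 log2 units of them, at 12.15 and 12.43 in Stellate/Basket P14, against 12.31 and 12.47 at Purkinje P3 and 11.91 and 12.31 at P7. Zic5 was lower at Stellate/Basket P14 than at Purkinje P3, by a log2 difference of -1.39 ± 0.20 and -1.68 ± 0.20, and than at P7, by -1.0 ± 0.20 and -1.14 ± 0.20. For Zic2 the differences were -0.94 and -0.85 and for Zic4 1456417_at -0.10 and -0.08. Age differs in these pairs as well as cell type, so the 2 cannot be told apart, and 3.34% and 3.04% of all probe sets were called against P3 and P7.

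Within Purkinje cells, neither the step from P3 to P7 nor the span from P14 to P56 moved a Zic probe set past the call threshold, an adjusted p under 0.05 with a log2 change of at least 1. Between P7 and P3 all 8 had an adjusted p of 1 by limma with Benjamini-Hochberg adjustment, and 1 of them, Zic5 1456219_at, had an unadjusted p under 0.05 (-0.54 ± 0.21, unadjusted p = 0.0173). In this comparison 0.0573% of all probe sets were called. Between P56 and P14, Zic1 differed by 0.50 ± 0.45 and 0.16 ± 0.59 (adjusted p = 0.526 and 0.910), Zic2 by 0.09 ± 0.20 and Zic5 by 0.37 ± 0.20 and 0.11 ± 0.20. Only the low probe set Zic5 1425666_at had an adjusted p under 0.05 (-0.25 ± 0.08, adjusted p = 0.0335), below the size threshold. Of all probe sets 1.57% were called. This span leaves out the ages between. At P21, P28 and P35 the Zic1 means were 6.88, 5.87 and 6.26 by 1423477_at and 6.43, 5.37 and 5.93 by 1439627_at. At P14 they were 4.72 and 4.35, and the steps to the ages between were not tested.

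Among arrays labelled Stellate/Basket, the clearest change with age was in Zic5. The P56 arrays had interneuron markers at 5.97 and Purkinje markers at 11.56, against 10.35 and 9.07 at P14. The comparison to P56 is thus between arrays of unlike marker content, and the part of this in the Zic values was not tested. At P56 the probe set 1456140_at was at 7.08 ± 0.32 (SD, n = 2) against 9.14 ± 0.21 at P14 (n = 4), a change of -2.07 ± 0.22 (SE; limma adjusted p = 1.55e-08), and 1456219_at fell by 2.03 ± 0.23 (6.49 ± 0.67 against 8.52 ± 0.27; adjusted p = 2.93e-08). Both P56 arrays were below all 4 P14 arrays in each of these, in Zic4 1456417_at and in Zic1 1423477_at, as they were in 20.3% of all probe sets. The P35 arrays were below all P14 arrays in Zic2 and in the same 2 Zic5 probe sets (17.0% of all), and the P28 arrays in Zic4 1456417_at and Zic5 1456140_at (11.9% of all). Of all probe sets 15.4% were called over this span, 10.2% as lower and 5.15% as higher at P56, so a fall was not rare. Zic4 1456417_at differed by -0.81 ± 0.18 (7.75 ± 0.19 against 8.56 ± 0.20; adjusted p = 0.00101) and Zic2 by -0.59 ± 0.23 (adjusted p = 0.0445), both under the size threshold. Zic1 differed by -1.06 ± 0.51 and -0.67 ± 0.67 (adjusted p = 0.111 and 0.472). Leaving out Stellate/Basket P56 replicate 3 gave -1.53 and -1.29, and leaving out replicate 1 gave -0.58 and -0.05. By 1423477_at the adjusted p was 0.0419 without Purkinje P21 replicate 2, which enters only through the pooled spread, and ranged from 0.0419 to 0.656 over the alternatives. The low probe set Zic4 1421539_at passed the filter only through both Stellate/Basket P56 arrays (5.11 and 6.74) and 1 P28 array (5.09), so its difference at P56, 1.18 ± 0.22, is given without a test; it was 0.37 without Stellate/Basket P56 replicate 3.

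Interneuron markers were low in the P56 arrays. At P35 they ranged from 8.76 to 9.79 over the 2 arrays, against 10.20 to 10.57 at P14, so P35 was not free of such a drop. Xist was 12.54 in P35 replicate 1 and 7.55 in replicate 2. With these limits, the same change was read up to P35. There Zic5 fell by 1.53 ± 0.22 by 1456140_at (7.61 ± 0.30, n = 2, against 9.14 ± 0.21, n = 4; adjusted p = 2.72e-05) and by 1.02 ± 0.23 by 1456219_at (7.51 ± 0.18 against 8.52 ± 0.27; adjusted p = 0.00320). The second call was close to the size threshold: it was lost under quantile normalization (-0.93), with the array's upper range as a covariate (-0.83), with replicate number as a block (-0.99), and without Stellate/Basket P35 replicate 1 (-0.89, adjusted p = 0.0826), P14 replicate 1 (-0.94) or P14 replicate 4 (-0.94). Zic1 differed by -0.06 ± 0.51 and 0.29 ± 0.67 (adjusted p = 0.966 and 0.854), Zic2 by -0.56 ± 0.23 (0.109) and Zic4 1456417_at by -0.38 ± 0.18 (0.193). In this comparison 5.12% of all probe sets were called, 3.53% as lower at P35. With 2 arrays at P35 and 2 at P56, these tests borrow their spread from all 12 groups. From P14 to P35, 3 of 7 interneuron markers also fell and 10 of 12 astrocyte and Bergmann glia markers rose, where 3.51% of all genes were called as lower and 1.96% as higher. To P56 all 7 fell (median -4.38) and 11 of 12 rose, where 12.2% of genes were called as lower and 6.43% as higher. Of 14 Purkinje markers 6 rose to P35 (median 1.12) and 8 to P56 (median 2.77), and none fell. The part of these cells in the Zic5 change was not tested. At P56 Zic1 was still at 10.61 and 11.56 by 1423477_at and 11.14 and 12.38 by 1439627_at, in the same arrays whose interneuron markers averaged 5.97.

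**Figure D3:**
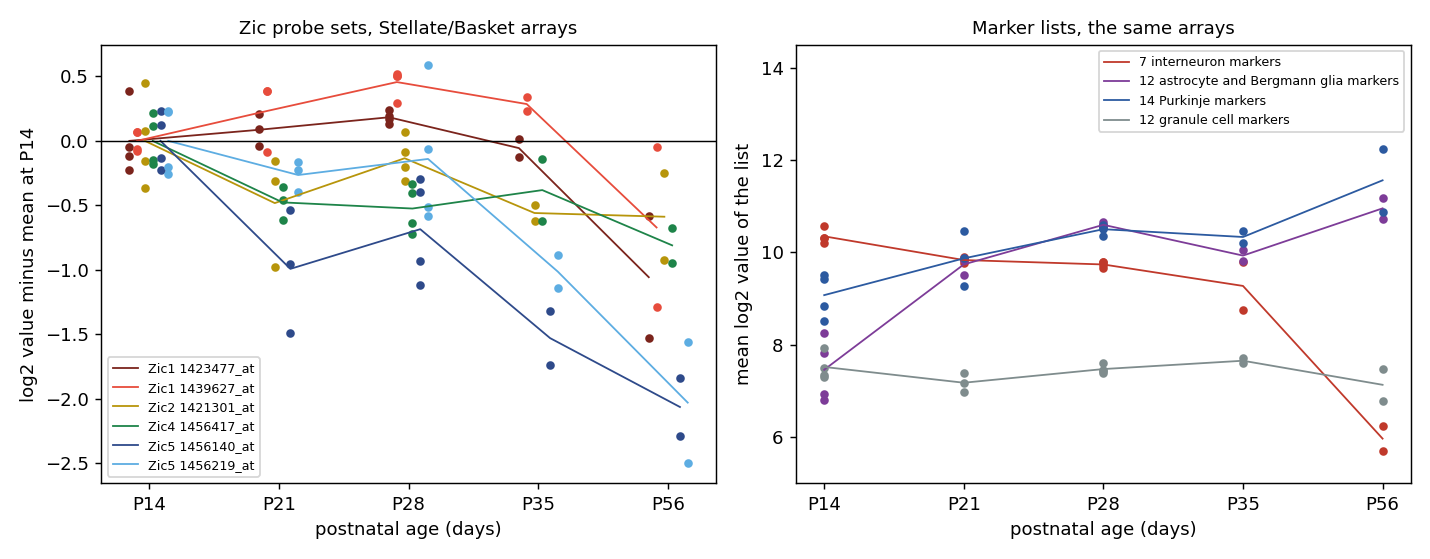
Left, log2 value of 6 Zic probe sets in each Stellate/Basket array minus their mean at P14; right, mean log2 value of 4 marker lists in the same arrays. Points are arrays and lines join group means, with ages evenly spaced. Zic5 is lower at P35 and P56, Zic1 differs from P14 by less than 0.5 in group mean up to P35, interneuron markers drop at P56 and astrocyte markers are higher from P21.

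A joint F test over the 5 Stellate/Basket ages called both brighter Zic5 probe sets (adjusted p = 1.01e-07 and 1.42e-07) and Zic4 1456417_at (adjusted p = 0.00641), where 36.5% of all probe sets were called. Zic2 (0.0653) and Zic1 (0.278 and 0.635) did not pass. The Zic4 call was lost under quantile normalization (adjusted p = 0.0613) and with array weights (0.0576; range over the alternatives 0.00122 to 0.0613). Zic2 passed when any 1 of 4 arrays was left out: Purkinje P7 replicate 2 (adjusted p = 0.0275), replicate 2 of Stellate/Basket P14 (0.0319) or P21 (0.0361), and replicate 1 of P56 (0.0194). With Stellate/Basket arrays alone in the fit, Zic1 passed (adjusted p = 0.0126 and 0.0460, ranges over the alternatives 0.0126 to 0.896 and 0.0460 to 0.952).

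The Zic5 change with age differed between the arrays of the 2 cell type labels, with the same limit on the Stellate/Basket P56 arrays. For P56 against P14, the Stellate/Basket change minus the Purkinje change was -2.43 ± 0.30 by 1456140_at (adjusted p = 4.19e-07) and -2.14 ± 0.30 by 1456219_at (adjusted p = 4.04e-06), where the median of all probe sets was 0.14 and 15.9% were called. For P35 against P14 it was -1.90 ± 0.30 (adjusted p = 0.000279) and -1.2 ± 0.30 (adjusted p = 0.0248), with 2.07% called. The last of these calls was lost under quantile normalization (adjusted p = 0.0644) and without Purkinje P14 replicate 2, Stellate/Basket P14 replicate 1 or Stellate/Basket P35 replicate 1 (0.0737, 0.0542 and 0.160; range over the alternatives 0.00647 to 0.160). Purkinje values of Zic5 lay between 4.87 and 5.64 from P14 on, near the low end of the scale, where a further fall would not be visible. For Zic1 the difference of changes was -1.56 ± 0.68 and -0.83 ± 0.89 to P56 (adjusted p = 0.0795 and 0.498). By 1423477_at its adjusted p was 0.0277 without Purkinje P21 replicate 2 (range over the alternatives 0.0138 to 0.381). To P35 the Zic1 difference of changes was -1.59 ± 0.68 and -1.30 ± 0.89 (limma adjusted p = 0.232 and 0.523).

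Within each Stellate/Basket array, Zic5 was read relative to Zic1, a measure that a common scaling of the array leaves unchanged. The comparison of the 6 arrays at P28 and P35 with the 4 at P14 was chosen after the values had been seen. Its p-values are therefore given as a description, and their adjustment covers the 6 ratios of this comparison alone. The log2 ratio of Zic5 1456140_at to Zic1 1439627_at was -4.66 ± 0.53 (SD, n = 6) at P28 and P35 and -3.29 ± 0.21 (n = 4) at P14, a difference of -1.37 (exact permutation test, two-sided, p = 0.00952, adjusted 0.0286 over 6 ratios). Against Zic1 1423477_at it was -1.07 (exact p = 0.0143, adjusted 0.0286). For Zic5 1456219_at the differences were -0.83 (exact p = 0.0429, adjusted 0.0514) and -0.54 (exact p = 0.110), neither with an adjusted p under 0.05. Zic2 over Zic1 1423477_at differed by -0.38 (exact p = 0.0143, adjusted 0.0286), and Zic4 over Zic1 by -0.58 (exact p = 0.0333, adjusted 0.05, not under that level). With P28 alone, adjusted as a separate set of 6 ratios, no ratio had an adjusted p below 0.0857. A ratio within an array shows unequal change and not which of the 2 genes changed.

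Across the 12 group means the Zic genes followed similar courses, given as a description because all points share the 2 cell types and their arrays. The 2 Zic1 probe sets correlated at r = 0.999 and the 2 brighter Zic5 probe sets at 0.992. Zic2 correlated with Zic5 1456140_at at 0.990, Zic4 1456417_at with it at 0.952 and Zic1 1423477_at with it at 0.898. For the pair of genomic neighbours Zic1 and Zic4 r was 0.844, below that of Zic4 with Zic5. The low probe sets Zic4 1421539_at and Zic5 1425666_at correlated with their brighter partners at 0.04 and 0.08, so they did not report the same course.

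Among 2841 genes whose group means spanned at least 2 log2 units, the 8 most like Zic1 over the 12 groups were Camk2n1 (r = 0.993), an inhibitor of CaM kinase, the transcription factor Tcf4 (0.991), the integrin regulator Fermt2 (0.987), the actin monomer binder Tmsb4x (0.985), the nuclear factor I gene Nfib (0.985), the receptor phosphatase Ptprg, the AMPA receptor subunit Gria4 and the kinase subunit Camk2g (0.983 each). Tcf4 was at 11.59, 11.20, 10.98, 11.07 and 9.48 from Stellate/Basket P14 to P56, against 11.27 and 11.13 at Purkinje P3 and P7 and 5.24 to 6.24 later. Tmsb4x stayed between 12.34 and 12.60 in Stellate/Basket groups and, like Zic1, had its highest later Purkinje mean at P21, 8.98. So did Camk2n1, Tcf4, Fermt2, Nfib and Gria4, but not Ptprg and Camk2g. Zic5 was most like Dyrk2, a protein kinase (r = 0.996), then Psme1, a proteasome activator subunit (0.979), and Rgs17, a regulator of G protein signalling (0.976). Dyrk2 stood at 9.34, 8.40, 8.33, 7.76 and 7.35 from Stellate/Basket P14 to P56, against 10.25 and 9.99 at Purkinje P3 and P7 and 5.16 to 5.63 later. Zic2 was most like Dyrk2 (0.983), Idh1 (0.977), an isocitrate dehydrogenase, and Cracd (0.975), and Zic4 most like the kinase Cilk1 (0.980), Psme1 (0.974) and Nkiras2 (0.974).

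**Figure D4:**
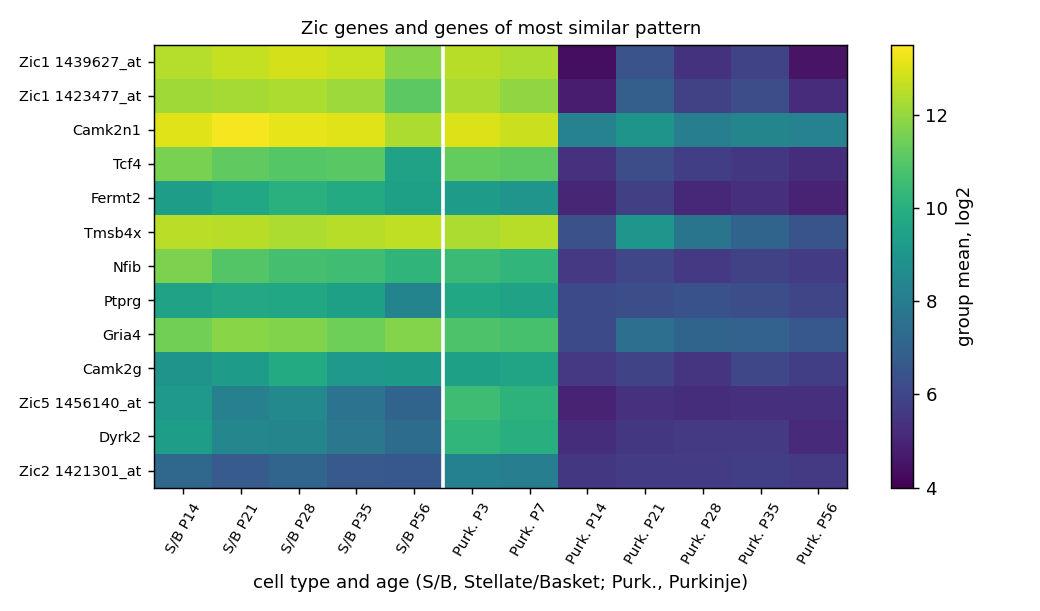
Group means (colour, log2) of 4 Zic probe sets and of the genes with the most similar course, Stellate/Basket groups left of the white line and Purkinje groups right of it. Genes like Zic1 are high in all Stellate/Basket groups and at Purkinje P3 and P7, and Dyrk2 follows the graded course of Zic5.

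The relatives and partners of Zic proteins were read from lists chosen with earlier results of these data known, with 1 probe set per gene. Counts and p-values of list genes are therefore given as a description. Of 17478 genes 11.5% were called for the cell type difference, 5.13% as higher in Stellate/Basket cells and 6.37% as lower. The median over all genes was -0.02. Of 5 tested Gli and Glis relatives, which share the zinc finger type, none was called by limma, and the median was 0.49. Adjusted p-values under 0.05 at sizes under 1 were found for 3 of the 5, Gli2, Gli3 and Glis2. Gli2 differed by 0.91 ± 0.20 (7.29 in Stellate/Basket, 6.39 in Purkinje arrays) and Gli3 by 0.57 ± 0.08. Gli2 rose in Stellate/Basket cells at P56 relative to P14 by 1.73 ± 0.49 (adjusted p = 0.00703). Of 12 Zic partners and reported targets, 3 were higher in Stellate/Basket cells, none was lower, and the median was 0.09. Apoe, a lipid carrier made by astrocytes and reported as a Zic target, was at 10.38 against 6.26 (4.12 ± 0.31, adjusted p = 5.68e-13) and rose within Stellate/Basket cells by 5.12 ± 0.74 to P56, alongside 11 of 12 astrocyte and Bergmann glia markers; their part in its level was not tested. Ephb1, a guidance receptor that Zic2 controls in retinal axons, was at 8.81 against 7.54 (1.27 ± 0.10, adjusted p = 6.03e-12), fell by 2.65 ± 0.25 in Stellate/Basket cells between P14 and P56 (adjusted p = 1.25e-09) and fell by 3.35 ± 0.24 in Purkinje cells between P7 and P14 (adjusted p = 2.01e-12). Pax3, a paired-domain transcription factor, was higher by 1.46 ± 0.15 (8.18 against 6.72). Mdfi, an inhibitor known to bind Zic proteins, differed by -0.72 ± 0.07, under the size threshold.

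Regulators of the cerebellar lineages were set beside the Zic genes. Their lists were also chosen with earlier results of these data known, so their counts and p-values are a description. Of 14 tested granule and unipolar brush lineage regulators, 6 were higher in Stellate/Basket cells and none lower (median 0.51): the nuclear factor I genes Nfib (5.08 ± 0.15, 10.82 against 5.74), Nfix (4.01 ± 0.08) and Nfia (3.20 ± 0.09), the proneural factor Neurod1 (3.91 ± 0.16), the homeobox gene En2 (2.62 ± 0.11) and Neurod2 (1.12 ± 0.11), with adjusted p between 2.81e-27 and 3.40e-10. Of these 14, 6 fell in Stellate/Basket cells between P14 and P56 and 7 in Purkinje cells between P7 and P14. Atoh1, the factor that specifies granule cell precursors, stayed at 5.46 and 5.39 and was not called. The granule cell markers as a list averaged 7.13 to 7.65 in Stellate/Basket groups, against 6.34 to 6.62 in Purkinje groups from P14 and 7.73 and 7.72 at P3 and P7, and 5 of 12 were higher in Stellate/Basket cells. Of 9 tested GABAergic interneuron lineage regulators, 1 was higher, Tfap2b (3.54 ± 0.15, adjusted p = 6.97e-19), and 3 were lower, Lhx1 (-1.88 ± 0.15), Lhx5 (-1.74 ± 0.15) and Foxp4 (-1.55 ± 0.13). Tfap2b is also among the interneuron markers. Lhx1 and Lhx5 also belong to the list of Purkinje lineage regulators and are counted as lower in both lists. Of 8 tested Purkinje lineage regulators, 6 were lower in Stellate/Basket cells (median -2.11), led by the helix-loop-helix factors Ebf1 (-3.67 ± 0.20, 6.91 against 10.58), Ebf3 (-2.99 ± 0.19) and Ebf2 (-2.34 ± 0.16) and by Foxp2 (-2.76 ± 0.20).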

How the data were processed

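Affymetrix MOE430.2 arrays were hybridised with amplified polyA RNA of hand-sorted cells. The authors deposited log2 expression values per probe set, already normalized; R 2.9.1 and GCRMA are named in the submitters' processing notes, without role or order. Of 42 deposited columns, 2 equal the mean of 2 others within 1e-08 and were left out. Groups follow the labels' cell type and age. The members and all gene lists were chosen with earlier results of these data known.

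All 41895 probe sets with log2 above 5 in at least 3 arrays entered a limma fit (version 3.58.1, R 4.3.3) of 12 group means over 40 arrays, on the values as deposited. P-values were adjusted by Benjamini-Hochberg over all of them. A probe set was called at an adjusted p under 0.05 with an absolute log2 difference of at least 1. For the F test over ages the adjusted p alone decided. Differences are Stellate/Basket minus Purkinje, or later minus earlier age. Contrasts known when the members were chosen carry no test for them. For lists and similar genes, a gene was its probe set with the highest mean, among the 34958 probe sets with 1 symbol (932 had several and 9211 none). Named were all member probe sets, the genes with the highest Pearson r to a member over the group means (8 for Zic1, 3 for each other member, predicted loci left out), and the leading called genes of each list, or the leading 2 where fewer were called; Mdfi, Atoh1, Gli3, Glis2, Neurod2 and En2 were added as known relatives or to complete a count. Number of arrays limits the precision. The limma p-values weigh a difference against the spread between arrays within groups, pooled over the 12 groups, and so not against the spread of the compared groups alone.

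Alternatives covered the filter, 1 probe set per gene, quantile and median scaling, the variance model, array weights, a replicate block, all 42 columns, the compared groups alone, no size threshold, Xist or the array's 90th percentile as covariate, and leaving out each array. Added after seeing the data were fits without Purkinje P3 and P7, with P14 to P35 alone, and with arrays of Xist above 9 for P21 to P56. The fit was tested on simulated data. Promoters and coordinates are RefSeq's (GRCm38.p6). Figures used Python 3.11.15 and matplotlib 3.10.9.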

Additional observations from a re-analysis of the deposited data

Results flagged for a closer look

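Of 48 groups of 4 arrays of a Zic probe set examined, 2 held an array set far from the rest, where chance alone flags about 1 group in 20. Zic1 1439627_at was 12.73 in Stellate/Basket P28 replicate 4, below the 12.94 to 12.95 of the other P28 arrays. Zic5 1425666_at was 5.22 in Purkinje P21 replicate 1, above the 4.89 to 4.94 of the others, at the low end of the scale.

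A test of the difference in change with age between the cell types called 5 cases, including the Zic4 case below, whose test is not read. Of all probe sets 15.9% were called for P56 against P14 and 2.07% for P35 against P14. For P56 against P14, the Stellate/Basket change minus the Purkinje change was -2.43 for Zic5 1456140_at, -2.14 for Zic5 1456219_at and 1.21 for the low probe set Zic4 1421539_at, the last in a probe set that passed the filter on low values through the P56 arrays where it is high, so its test is not read; it was 0.40 without Stellate/Basket P56 replicate 3. For P35 against P14 it was -1.90 for Zic5 1456140_at and -1.2 for Zic5 1456219_at. Purkinje values of these 2 Zic5 probe sets lay between 4.87 and 5.64 from P14 on, where a further fall would not be visible.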

How the results depend on the processing

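Of 72 Zic values, none past the threshold changed sign under an alternative; 9 others, of at most 0.111 in size, did so in 23 cases. Among 954 values under other settings 27 crossed the threshold or moved by more than the spread, and among 2880 with 1 array left out 18 did. The 2 brighter Zic5 probe sets kept their call for P56 against P14 in Stellate/Basket cells and for the difference of that change throughout. The Zic5 cell type difference moved by more than the spread between replicates with P14 to P35 alone (3.14 and 2.89) and, for 1456140_at, with Xist-high arrays (2.51). The Zic2 change to P56 passed the threshold for a difference between cell types only without Stellate/Basket P56 replicate 1 (-1.02), and its Purkinje difference between P14 and P7 was -2.23 without Purkinje P7 replicate 2. The causes were not tested.

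Counts of called probe sets moved as follows. With 1 probe set per gene, where fewer features are tested, they were 2009 for the cell type difference (3851 as reported), 3275 for Stellate/Basket P14 to P56 (6434), 966 to P35 (2146), 296 for Purkinje P14 to P56 (657), 9 for P3 to P7 (24), 2227 for P7 to P14 (4165), 3507 and 462 for the differences of changes to P56 and P35 (6644 and 869) and 7082 for the F test (15294). Array weights gave 3048, 1093, 182, 3971 and 9198 for Stellate/Basket P14 to P56, Purkinje P14 to P56, Purkinje P3 to P7, the difference of changes to P56 and the F test. The compared groups alone gave 4282 for Stellate/Basket P14 to P56, 9582 for the F test and 0 for Purkinje P3 to P7, where 2041 had an unadjusted p under 0.05 by limma. All 42 columns gave 1441 for the difference of changes to P35, and a floor of 7 gave 9868 for the F test. Without a size threshold the counts were 21367, 13461, 4813, 5128, 6853 and 12293 for the cell type difference, Stellate/Basket P14 to P56 and to P35, Purkinje P14 to P56 and P7 to P14, and the difference of changes to P56. Leaving out 1 array gave 3705 to 4152 for the cell type difference, 6050 to 8118 for Stellate/Basket P14 to P56, 1239 (without P35 replicate 1) to 2369 for P14 to P35, 388 (without Purkinje P14 replicate 3) to 972 for Purkinje P14 to P56, 10 (without P3 replicate 2) to 115 (without P7 replicate 1) for P3 to P7, 3544 to 4293 for P7 to P14, 5223 to 9174 for the difference of changes to P56, 463 (without Stellate/Basket P35 replicate 1) to 1309 (without P35 replicate 2) for that to P35, and 12734 to 17533 for the F test.

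The share of calls that were higher was 25.2% under median centring against 35.3% for the difference of changes to P56, and 89.2% against 78.4% for Purkinje P14 to P56. With the array's 90th percentile as covariate it was 60%, 46.4%, 49%, 50.2% and 52.9% for the cell type difference, Stellate/Basket P14 to P56 and to P35, Purkinje P14 to P56 and the difference of changes to P56, against 49.4%, 33.5%, 31%, 78.4% and 35.3%. Arrays with the same replicate number did not deviate together (mean r -0.01 over 191 pairs, against 0.004 over 539 pairs of unlike number), so the numbers were not taken as pairs. With replicate number as a block the counts were 3837, 6334, 2104, 585, 25, 4127, 6250, 834 and 14798 in the order above, and of the Zic calls it changed only that of Zic5 1456219_at for P35 against P14. Signal near the low end of the scale, without detection calls, limits what can be read in Purkinje cells from P14 on.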
